A study of Saccharomyces cerevisiae with 18 samples.

Results

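Small nucleolar RNAs (snoRNAs) of budding yeast were followed by RNA-seq in 6 groups of cells. The genes were taken by name from the deposited count table: identifiers that start with snR and a digit, without the spliceosomal RNAs snR6, snR14 and snR19 and the snR7 isoforms, and with at least 10 counts in at least 3 of the 18 libraries. This rule found 75 genes among 6837 in the table, from 76 that matched by name. The gene left out, snR73, reached 10 counts in 0 libraries. The reference annotation places 46 of the 75 in the C/D class and 29 in the H/ACA class. In the model across all genes 74 could be tested, since snR53 was too low, with 2 to 14 counts in each library.

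SnoRNAs guide chemical changes of ribosomal RNA by base pairing. C/D snoRNAs carry the boxes C and D and, with the methyltransferase Nop1, guide methylation of riboses, whereas H/ACA snoRNAs fold into hairpins, end in an ACA box and, with the enzyme Cbf5, guide the change of uridine to pseudouridine. A few, such as U3, U14, snR30 and snR10, are needed for cutting the ribosomal RNA precursor. Yeast snoRNAs come from genes of their own, from introns of host genes or from transcripts that carry several of them, and their mature ends are made by trimming.

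All groups were cells of BY4742, a haploid laboratory strain, grown in the rich medium YPD without treatment and collected at day 1 or at day 4. They were wild type (WT), a set2 deletion (set2Δ, which lacks the histone methyltransferase Set2) or a bre1 deletion (bre1Δ, which lacks Bre1, a ubiquitin ligase of histone H2B). Each strain and day had 3 libraries. The labels do not say whether replicates were separate cultures or whether a deletion strain was 1 clone, so p-values measure the spread between these libraries, which may be technical. The molecule is labelled as poly(A) RNA. Mature snoRNAs have no poly(A) tail, so every level below is the amount of snoRNA sequence that reached such a library, which may differ from the amount of mature snoRNA in the cell.

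Library totals ranged from 8038470 to 29514490 counts. SET2 lay between 20.5 and 45.3 CPM (counts scaled to library size) in the libraries that carry the gene and between 0.209 and 0.602 CPM in set2Δ. BRE1 lay between 68.8 and 134 CPM in the libraries that carry it and had 2 counts in all 6 bre1Δ libraries together. The library labelled replicate 3 of set2Δ at day 4 stood apart: it was the highest of its group for 52 of the 74 tested snoRNAs, with a median log2 ratio of 0.43 to the mean of the other 2. Several results of set2Δ at day 4 are also given without it below, and the others include it.

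The sequences shown here belong to the snoRNAs on which the results turn: those with the largest rises with age in WT, the partner that shares a transcript with one of them, and the only one that fell. They were read from the R64 genome (RefSeq, the assembly known as sacCer3) along the gene strand. Capitals mark TGATGA within the first 20 bases (box C), CTGA starting in the last 20 bases (box D) or, in the H/ACA snoRNA snR189, ACA starting in the last 8 bases, whose first letter also ends a CTGA there. In snR4 and snR76 the CTGA alone was found. snR189 lies at chrIII:178610-178798 on the minus strand, snR128 at chrX:139566-139691 on the minus strand, snR190 just upstream of it at chrX:139761-139950, snR4 at chrV:424698-424883 on the plus strand, snR76 at chrXIII:297725-297833 on the plus strand and snR87 at chrXI:431030-431138 on the minus strand.
snR189: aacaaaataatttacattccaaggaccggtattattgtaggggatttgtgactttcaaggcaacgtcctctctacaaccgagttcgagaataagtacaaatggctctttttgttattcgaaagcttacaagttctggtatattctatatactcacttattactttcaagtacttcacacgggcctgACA
snR128: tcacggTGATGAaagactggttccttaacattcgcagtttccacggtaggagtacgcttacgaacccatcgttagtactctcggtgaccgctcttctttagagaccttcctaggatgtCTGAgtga
snR190: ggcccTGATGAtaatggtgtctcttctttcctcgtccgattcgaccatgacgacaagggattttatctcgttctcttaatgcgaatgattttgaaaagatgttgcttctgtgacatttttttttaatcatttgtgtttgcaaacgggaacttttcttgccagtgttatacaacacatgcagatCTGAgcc
snR4: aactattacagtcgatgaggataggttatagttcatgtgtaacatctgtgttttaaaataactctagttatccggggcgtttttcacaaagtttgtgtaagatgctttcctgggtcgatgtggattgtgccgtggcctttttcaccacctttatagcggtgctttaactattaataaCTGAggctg
snR76: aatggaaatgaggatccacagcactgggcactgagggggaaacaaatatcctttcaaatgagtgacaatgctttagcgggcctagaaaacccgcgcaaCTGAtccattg
snR87: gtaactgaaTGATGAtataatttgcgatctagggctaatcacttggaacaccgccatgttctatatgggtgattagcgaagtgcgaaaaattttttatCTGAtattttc
Searched on the gene strand only, TGATGA was found in 35 of 46 C/D genes (76.1%) and in 1 of 29 H/ACA genes (3.45%). CTGA was found in 44 of 46 C/D genes (95.7%) and in 2 of 29 H/ACA genes (6.90%), and the ACA in 17 of 29 H/ACA genes (58.6%) and in 3 of 46 C/D genes (6.52%). The box letters thus marked nearly all C/D genes by their CTGA, while 12 of 29 H/ACA genes had no ACA in the last 8 bases.

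SnoRNA sequence took a small part of every library, and that part was largest in WT at day 4. The 75 genes held 0.0427 ± 0.00266% of all counts (SD, n = 3 here and below) in WT at day 1 and 0.213 ± 0.0157% at day 4, a ratio of 5.00. In set2Δ they held 0.115 ± 0.00256% at day 1 and 0.146 ± 0.0382% at day 4, or 0.125% at day 4 without replicate 3. In bre1Δ they held 0.0709 ± 0.00595% at day 1 and 0.0561 ± 0.000668% at day 4. In WT the 3 libraries of day 4 all lay above those of day 1, in bre1Δ they all lay below, and in set2Δ the days overlapped, since replicate 2 of day 4 was below the day 1 libraries. An exact two-sided permutation test gave p = 0.1 for WT and bre1Δ, the smallest value that 3 libraries against 3 allow, and p = 0.4 for set2Δ. In such bulk samples fewer cells with an RNA and less of it per cell cannot be told apart.

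**Figure D1:**
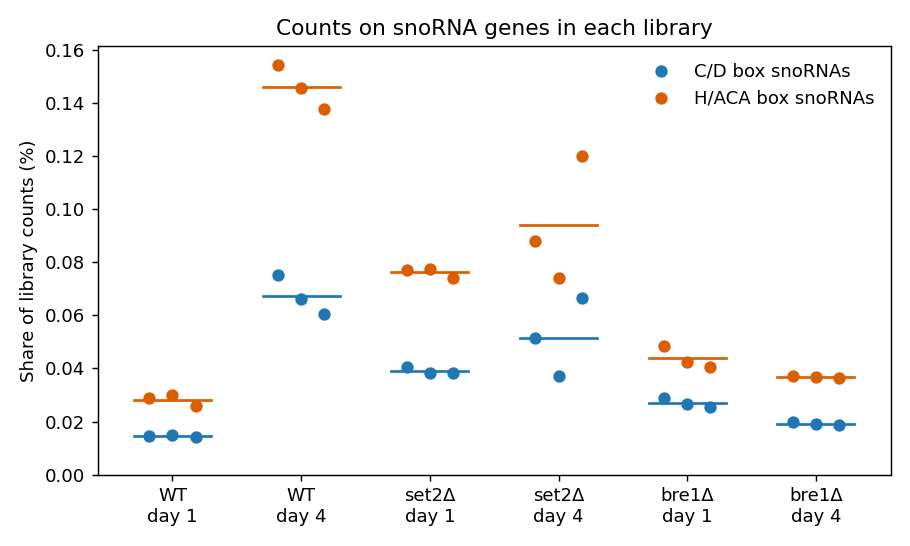
Share of each library's counts on C/D snoRNA genes (blue) and H/ACA snoRNA genes (orange), in percent; each point is a library and each line the mean of 3. The H/ACA share rises from 0.0282% to 0.146% between the WT days and the C/D share from 0.0145% to 0.0673%, and in bre1Δ the mean H/ACA share goes from 0.0438% to 0.0369%.

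With age in WT, snoRNAs of both classes rose. Of 74 tested, 61 rose and 1 fell at an adjusted p under 0.05 (edgeR's quasi-likelihood test, Benjamini-Hochberg over all genes tested, used for every p-value of a single gene below), against a background of 37.2% of all genes higher and 40.5% lower. At least 2-fold rises were found for 54 of the 74, against 12.6% of all genes, and falls of that size for 0, against 6.22%. The median log2 fold change was 1.93 for the snoRNAs and -0.02 for all 6320 genes tested. Below, ± after a log2 fold change is an approximate standard error, the absolute log2 fold change divided by the square root of the test's F statistic. After a level ± is the SD, and levels are CPM after TMM scaling.

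The snoRNAs that act in cutting the ribosomal RNA precursor were among those that rose. snR128, which encodes U14 and is needed to release the precursor of the small subunit rRNA, was at 1.13, 0.833 and 1.14 CPM in the WT libraries of day 1 and at 32.6, 18.3 and 13.2 CPM at day 4. Its groups lay far apart, although the day 4 libraries spread widely among themselves, and the log2 fold change was 4.38 ± 0.56 (adjusted p = 4.54e-07). snR30, an H/ACA snoRNA with a role in processing rather than in modification, was at 11.9, 14.1 and 15.8 CPM and then at 178, 157 and 130 CPM. The change of snR30 was 3.46 ± 0.24 (adjusted p = 2.86e-11), with every day 4 library several times above every day 1 library.

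U3, the core RNA of the complex that assembles on the small subunit precursor, is encoded by 2 genes. snR17a was at 23.6, 24.8 and 25.5 CPM at day 1 and at 223, 180 and 152 CPM at day 4 in WT, a log2 fold change of 2.91 ± 0.24 (adjusted p = 7.32e-10). snR17b was lower, with a mean of 1.79 CPM at day 1 and 10.6 CPM at day 4, and changed by 2.57 ± 0.33. Both copies rose, and no library of day 1 reached a library of day 4. Their sequences are 81.6% identical, and 8.16% of the 50-base windows of snR17a occur in snR17b, so the split of reads between them is uncertain within these stretches. No window of that length was shared by any other pair of the 75 genes.

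snR10, needed for cleavage of the precursor and also a guide for the large subunit, had few counts in WT at day 1, at 1, 2 and 0. It had 15, 17 and 14 counts at day 4. The ratio of these sums per effective library size was 11.1, with an exact 95% interval of 3.55 to 55.6 that covers counting error only. The gene overlaps the open reading frame YGL088W on the same strand, so reads of the 2 cannot be told apart. YGL088W had 0, 2 and 1 counts in WT at day 1 and 6, 3 and 2 at day 4. Whether the overlap lowered the counts of snR10 was not tested, so these may not stand for its level.

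Guides of base acetylation rose as well. snR4, a C/D snoRNA that directs acetylation of a cytosine in the small subunit rRNA, was at 12.3, 14.0 and 13.9 CPM in WT at day 1 and at 294, 270 and 259 CPM at day 4. The replicates were close together on both days, and the log2 fold change was 4.35 ± 0.11 (adjusted p = 1.35e-18). snR45, the other such guide, rose from a mean of 1.57 ± 0.347 CPM to 15.7 ± 6.60 CPM, a log2 fold change of 3.34 ± 0.47.

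Among guides of methylation and pseudouridylation, snR189 changed the most. It guides pseudouridylation in both subunits and was at 1.54, 1.40 and 2.29 CPM in WT at day 1 and at 64.4, 63.6 and 57.4 CPM at day 4. This is a log2 fold change of 5.15 ± 0.25 (adjusted p = 9.58e-14), the largest of the 74, with no overlap between days. The H/ACA guides snR9, snR32, snR37 and snR8 rose by 2.10 ± 0.09, 3.18 ± 0.49, 2.13 ± 0.31 and 2.94 ± 0.26, and the methylation guide snR76 by 3.87 ± 0.22. snR71, also a methylation guide, rose by 1.48 ± 0.23.

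The only one that fell in WT was snR87, a guide of methylation in the small subunit. It was at 8.66, 6.82 and 9.02 CPM at day 1 and at 4.22, 4.82 and 4.35 CPM at day 4, so the days did not overlap. Its log2 fold change was -0.86 ± 0.17 (adjusted p = 0.000142). Some methylation guides named below for other comparisons did not pass the threshold in WT with age. They were snR57 (0.01 ± 0.13), snR62 (0.10 ± 0.19), snR68 (-0.02 ± 0.15) and snR69 (0.27 ± 0.16).

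**Figure D2:**
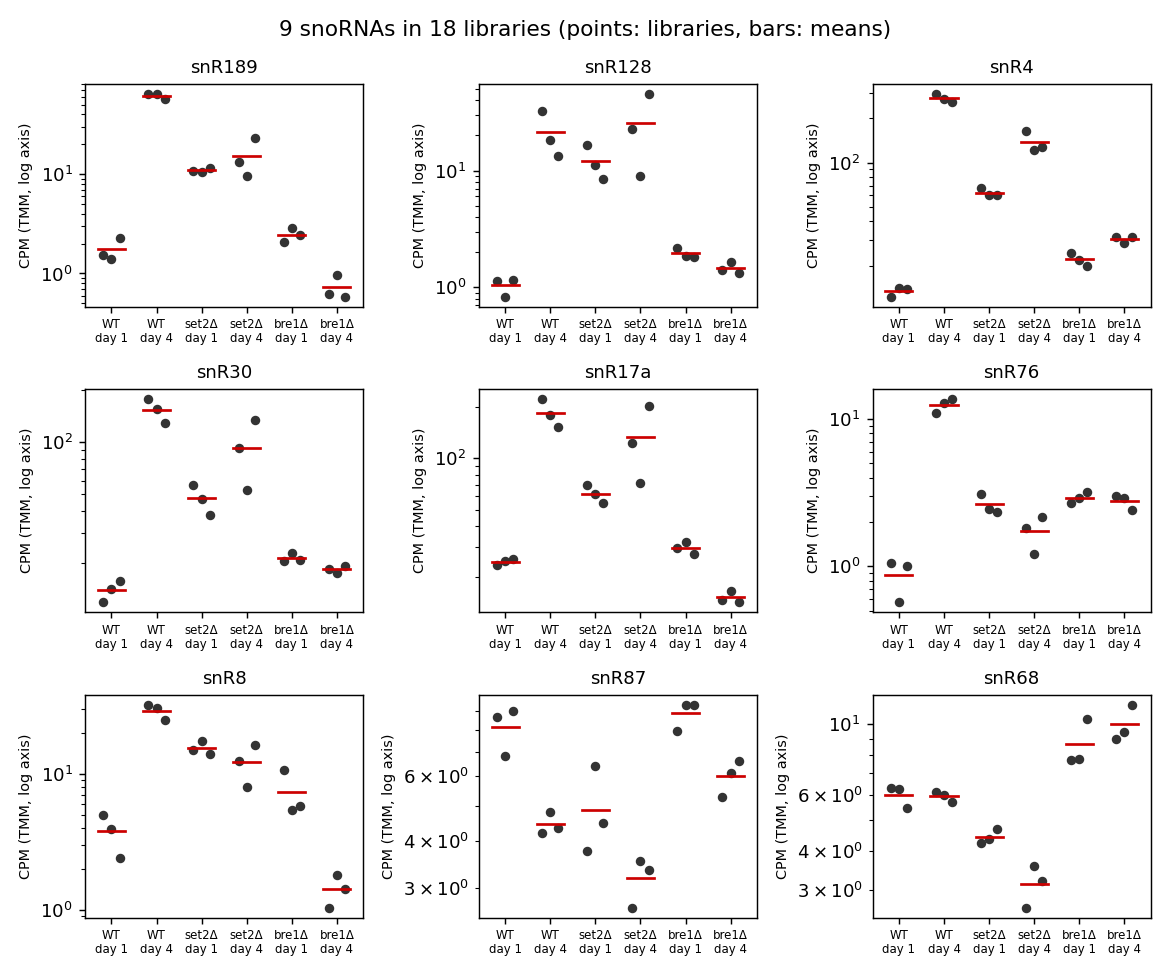
Levels of 9 snoRNAs in the 18 libraries, in CPM after TMM scaling on a log axis whose range differs between panels; points are libraries and red bars group means. snR189 spans from 0.587 CPM in a bre1Δ library of day 4 to 64.4 CPM in a WT library of day 4, whereas snR87 falls between the WT days and snR68 stays near 6 CPM in WT.

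The median WT rise was larger in the H/ACA class, as a description with no test of the difference. Of 29 H/ACA snoRNAs 28 rose, with a median log2 fold change of 2.48, and of 45 tested C/D snoRNAs 33 rose and 1 fell, with a median of 1.48. The H/ACA genes are also longer, with a median span of 204 bases against 97.5. Among genes with spans over 150 and up to 250 bases the median was 2.48 for 20 H/ACA snoRNAs and 2.64 for 4 C/D snoRNAs. Across the 74 snoRNAs, which share the same libraries, Spearman's rho of the WT change was 0.51 with GC content, 0.37 with span, 0.16 with mean FPKM and -0.04 with the longest run of A in the sequence. The part of length and base composition in the result was not tested.

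Most of the snoRNAs have genes of their own, and where they do not, the snoRNA and the rest of its transcript could be compared. The 8 intronic snoRNAs had WT log2 fold changes of 0.96 to 3.19, and 7 of them passed the threshold. Of their 8 host genes 2 rose and 3 fell, against 37.2% and 40.5% of all genes, with a median of -0.06. snR39 rose by 1.85 in WT while its host RPL7A, a large subunit ribosomal protein gene, fell by 0.83. snR24 in ASC1 changed by 3.19 ± 0.39, and its host by -0.08 ± 0.09, which did not pass. Some snoRNA genes had a protein-coding neighbour on the same strand within 500 bases. The 19 upstream neighbours had a median change of 0.13, with 9 higher and 9 lower. The 21 downstream neighbours had a median of -0.37, with 4 higher and 13 lower. The same background of 37.2% and 40.5% of all genes holds here. The snoRNAs beside the upstream and downstream neighbours had medians of 2.01 and 2.57.

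Members of 1 transcript had unlike values, with no test of the difference. snR190 and snR128 are made from a common transcript. snR190 was at 7.85, 7.34 and 8.14 CPM in WT at day 1 and at 42.0, 32.2 and 15.5 CPM at day 4, a change of 1.94 ± 0.32 (adjusted p = 1.49e-05), beside the 4.38 ± 0.56 of snR128 given above. In the transcript that starts with snR41, the changes in WT were 0.43 for snR41, 1.32 for snR70 and 2.57 for snR51, all past the threshold. In that of snR57, snR55 and snR61 only snR61 passed, at 0.62. In the long cluster from snR78 to snR72 all 6 tested members rose, by 1.44 to 3.87. snR73, which the count rule left out, lies in the same cluster. snR67 rose by 0.69, and its partner snR53 was not tested.

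**Figure D3:**
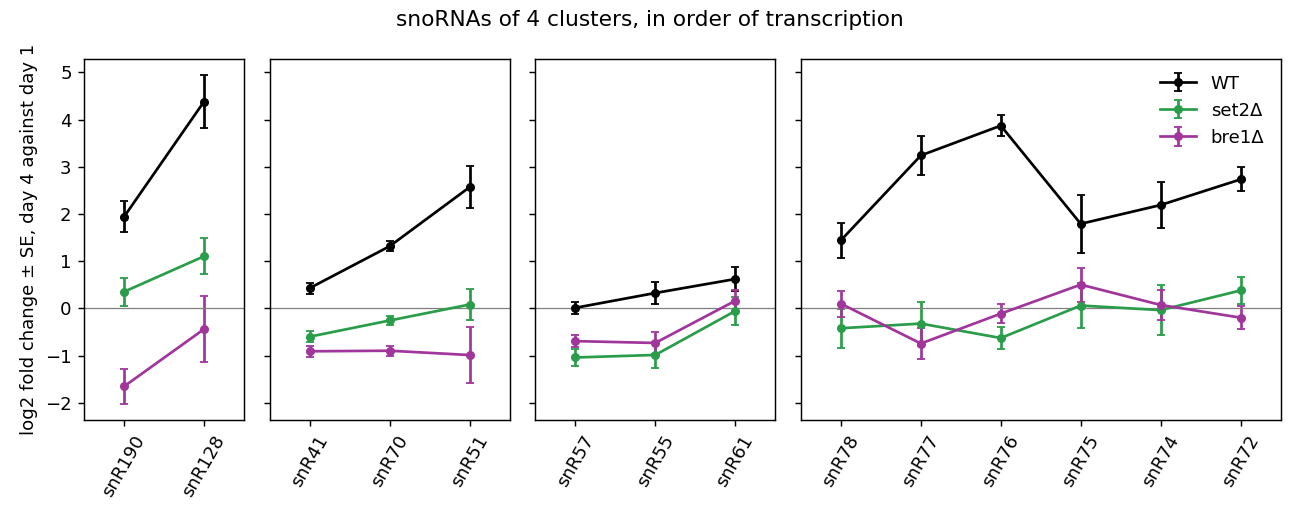
Log2 fold change between day 4 and day 1 (bars: approximate standard error derived from the F statistic) of the tested snoRNAs of 4 of the 5 clusters, drawn in order of transcription, in WT (black), set2Δ (green) and bre1Δ (purple). In WT snR128 lies above snR190 (4.38 and 1.94) and snR51 above snR41 (2.57 and 0.43), and the WT line lies above both deletions in each panel.

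In set2Δ the snoRNAs moved in both directions between the days. Of 74, 23 rose and 15 fell, against a background of 34.3% of genes higher and 37.3% lower, with a median log2 fold change of 0.10 against -0.03 for all genes. Rises of at least 2-fold numbered 7, against 7.37% of genes, and falls 4, against 6.27%. None of these shares stood clearly above the background. Without replicate 3 of day 4 there were 10 that rose and 18 that fell. Scaling by library size gave 15 risers and 17 fallers, and upper quartile scaling 13 and 18, with 38.8% and 35.5% of all genes' calls higher in place of 47.9%. snR4 was again among those that rose. It was at 67.5, 60.02 and 60.41 CPM at day 1 and at 165, 122 and 128 CPM at day 4, with no overlap (1.13 ± 0.09, adjusted p = 3.61e-10). snR32, a guide for the large subunit, changed by 1.15 ± 0.39, but by 0.39 without replicate 3, which did not pass (adjusted p = 0.358).

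snR57 was at 4.89, 5.74 and 4.79 CPM at day 1 and at 1.57, 2.62 and 2.999 CPM at day 4, a log2 fold change of -1.04 ± 0.17 (adjusted p = 2.00e-05). snR62, a guide for the large subunit, changed by -0.88 ± 0.19. By class, 13 of 45 C/D and 2 of 29 H/ACA snoRNAs fell, a share below the 37.3% of all genes in both. Rises were found for 8 C/D snoRNAs, a share below the 34.3% of all genes, and for 15 H/ACA snoRNAs, a share above it. Without replicate 3 of day 4, 12 C/D and 6 H/ACA snoRNAs fell and 5 of each class rose, so the 15 rested on that library. Of the 61 that rose in WT, 21 rose in set2Δ, a share near the 34.3% of all genes, and 33 did not pass. The other 7 fell, against 37.3% of all genes: snR10, snR33, snR41, snR52, snR67, snR70 and snR76. Without replicate 3 of day 4, 9 of the 61 rose, 41 did not pass and 11 fell. The call of snR10 was lost without replicate 1 or 2 of day 1 or replicate 2 or 3 of day 4 (-0.88 to -0.82), and that of snR76 without replicate 1 of day 1 or replicate 2 of day 4 (-0.50 and -0.37).

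Several processing snoRNAs spread widely in set2Δ at day 4. snR128 was at 22.6, 9.01 and 45.5 CPM there, after 16.4, 11.1 and 8.42 CPM at day 1, so the days overlapped, with a change of 1.11 ± 0.38 (adjusted p = 0.0137). snR30 went from 56.8, 47.0 and 38.2 CPM to 92.6, 52.8 and 134 CPM, again with overlap (0.97 ± 0.21, adjusted p = 0.000317). In both, replicate 3 of day 4 was the highest. Without it the changes were 0.32 for snR128 (adjusted p = 0.437) and 0.58 for snR30 (adjusted p = 0.00729). Without replicate 3 of day 1 snR128 did not pass either (0.91, adjusted p = 0.0654). snR17a changed by 1.10 ± 0.22, and by 0.63 without replicate 3 of day 4, which still passed (adjusted p = 0.00257). snR189 changed by 0.49 ± 0.21 (adjusted p = 0.0383) and by 0.01 without that library (adjusted p = 0.975), and it did not pass without any 1 of the day 1 libraries either, at 0.47 to 0.52.

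In bre1Δ fewer snoRNAs rose with age than fell. Of 74, 33 fell and 9 rose, against 38.4% of genes lower and 37.9% higher, with a median log2 fold change of -0.52 against -0.02 for all genes. The share that fell was near the background, and the share that rose was below it. By at least 2-fold 17 fell, against 7.85% of all genes, and 3 rose, against 9.92%. snR8, an H/ACA guide for the large subunit, was at 10.7, 5.40 and 5.75 CPM at day 1 and at 1.04, 1.80 and 1.43 CPM at day 4, without overlap (-2.32 ± 0.34, adjusted p = 2.95e-06). snR37, which has a structural role in the early large subunit precursor, was at 37.5, 23.5 and 21.8 CPM and then at 5.15, 3.82 and 4.24 CPM (-2.64 ± 0.36, adjusted p = 1.16e-06). Its day 1 libraries differed, but all lay above those of day 4.

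snR189, the snoRNA that rose most in WT, fell in bre1Δ from 2.09, 2.84 and 2.47 CPM to 0.626, 0.974 and 0.587 CPM (-1.86 ± 0.42, adjusted p = 0.000448). U3 from snR17a fell from 29.6, 32.1 and 27.4 CPM to 14.8, 16.7 and 14.3 CPM (-0.98 ± 0.27, adjusted p = 0.00294). snR30 was at 20.6, 23.0 and 20.7 CPM and then at 18.6, 17.4 and 19.2 CPM, which did not pass (-0.22 ± 0.25, adjusted p = 0.436). For all 3 of these the bre1Δ libraries of the 2 days did not overlap.

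The 9 that rose in bre1Δ included the H/ACA guide snR83 (0.82 ± 0.16), the methylation guide snR71 (0.78 ± 0.26) and snR4 (0.46 ± 0.10). The call of snR71 was lost without replicate 3 of day 1 (0.59) or of day 4 (0.52). Of the 61 that rose in WT, 28 fell in bre1Δ, against 38.4% of all genes, and 25 did not pass. The other 8 rose, against 37.9% of all genes: snR4, snR24, snR46, snR52, snR71, snR83, snR84 and snR86. snR80, an H/ACA guide picked out after its values were seen, also rose. It was at 0.916, 0.609 and 0.705 CPM at day 1 and at 2.44, 1.42 and 2.38 CPM at day 4 (1.55 ± 0.32, adjusted p = 0.000184), and it did not pass in WT (-0.06 ± 0.45).

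**Figure D4:**
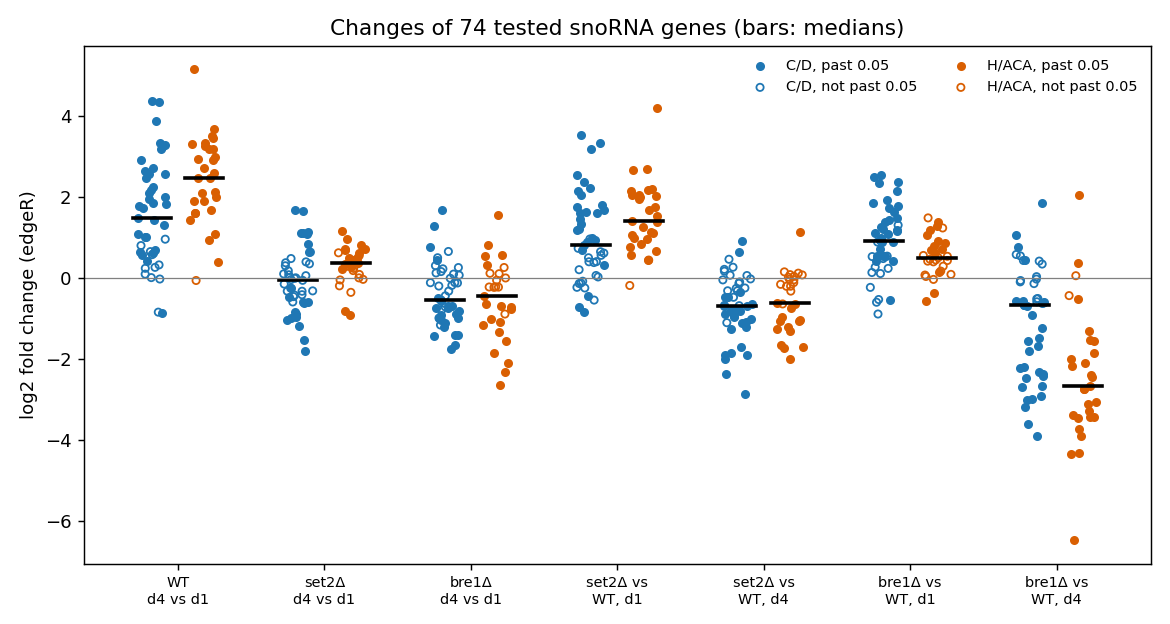
Log2 fold changes of the 74 tested snoRNAs in the 7 pairwise comparisons (edgeR), with C/D in blue and H/ACA in orange; filled points passed an adjusted p of 0.05 and black bars are class medians. The medians of WT with age are 1.48 and 2.48, and those of bre1Δ against WT at day 4 are -0.65 and -2.66.

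At day 1 more snoRNAs were above WT than below it in both deletions. These 2 comparisons share the WT libraries of day 1, which also enter the WT change with age, so their values are set side by side and not counted as independent. In set2Δ 51 of 74 were higher and 3 lower, against a background of 37.9% and 39.5%, with a median log2 difference of 1.09. By at least 2-fold 38 were higher and 0 lower, against 10.3% and 8.75%. In bre1Δ 41 were higher and 3 lower, against 35.8% in each direction, with a median of 0.71. Of these 44 calls 29 were kept when every library was left out in turn, and 15 were lost. By at least 2-fold 24 were higher in bre1Δ and 0 lower, against 5.79% and 4.54%. Scaling by library size alone shifted the median of all genes to 0.35 and 0.32 in these comparisons and made 74.1% and 74.8% of all calls higher, in place of 48.9% and 50.02%. Relative to that shift the snoRNA medians were 1.09 and 0.68.

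snR128 was at 16.4, 11.1 and 8.42 CPM in set2Δ and at 2.16, 1.87 and 1.82 CPM in bre1Δ at day 1, against 1.04 ± 0.177 CPM in WT. The difference passed in set2Δ (3.55 ± 0.60, adjusted p = 1.70e-05) and not in bre1Δ (0.93 ± 0.79, adjusted p = 0.299). snR45 was at 15.5 ± 2.29 CPM in set2Δ and 7.95 ± 0.774 CPM in bre1Δ, against 1.57 CPM in WT, and was higher in both (3.33 ± 0.47 and 2.36 ± 0.51). snR76 was at 2.63 ± 0.401 CPM in set2Δ and 2.92 ± 0.245 CPM in bre1Δ, against 0.878 CPM in WT (1.63 ± 0.27 and 1.78 ± 0.26).

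For snR10 the 76 counts of set2Δ at day 1 against 3 in WT gave a ratio of 20.4, with an exact 95% interval of 6.72 to 101 that covers counting error only. Among the few that were lower at day 1 in set2Δ, snR57 differed from WT by -0.83 ± 0.14 and snR87 by -0.72 ± 0.17. In bre1Δ snR9, an H/ACA guide for the large subunit, was at 23.5, 18.02 and 16.3 CPM against 27.5, 29.5 and 27.5 CPM in WT (-0.56 ± 0.11, adjusted p = 7.52e-05), and snR69 was lower by -0.55 ± 0.17. The same snR9 was higher in set2Δ, at 78.2, 85.7 and 80.0 CPM (1.52 ± 0.09, adjusted p = 6.31e-12).

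snR63 is the next gene downstream of BRE1 on the same strand, 576 bases away. In bre1Δ it was at 8.96, 8.44 and 6.99 CPM at day 1 and at 9.12, 8.09 and 5.93 CPM at day 4, against 4.29, 6.30 and 5.86 CPM and 10.2, 8.74 and 5.85 CPM in WT. It passed as higher than WT at day 1 (0.55 ± 0.24, adjusted p = 0.0475), a call lost without replicate 1 or 3 of WT or replicate 1 or 2 of bre1Δ (0.42 to 0.59), and did not pass at day 4 (-0.13 ± 0.23, adjusted p = 0.580). At day 4 the bre1Δ libraries all lay within the range of WT.

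At day 4 more snoRNAs were below WT than above it in both deletions, and these comparisons share the WT libraries of day 4. In bre1Δ 52 of 74 were lower and 6 higher, against a background of 41.6% and 44.8%, with a median log2 difference of -1.61 against 0.04 for all genes. By at least 2-fold 43 were lower and 3 higher, against 19.1% and 18.9% of genes. In set2Δ 39 were lower and 3 higher, against 44% and 34.7%, with a median of -0.64 against -0.10, so that the count of lower snoRNAs was near its background. Without replicate 3 of set2Δ 44 were lower and 0 higher. By at least 2-fold 21 were lower and 1 higher, against 12.1% and 9.75%. Scaling by library size alone put 60.7% of all set2Δ calls and 62.2% of all bre1Δ calls higher, in place of 44.1% and 51.9%, with the median of all genes at 0.16 and 0.31.

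snR189 lay furthest below WT in bre1Δ, at 0.729 ± 0.213 CPM against 61.8 ± 3.84 CPM (-6.47 ± 0.28, adjusted p = 4.87e-15). snR8 was at 1.42 ± 0.377 CPM against 28.9 ± 3.87 CPM (-4.34 ± 0.30, adjusted p = 1.14e-11), and snR4 was at 31.0, 28.6 and 31.1 CPM (-3.18 ± 0.09, adjusted p = 1.23e-17). snR17a, snR128 and snR30 differed by -3.61 ± 0.26, -3.89 ± 0.51 and -3.06 ± 0.23. In each of these every bre1Δ library lay below every WT library.

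In set2Δ at day 4 snR76 and snR189 were among those furthest below WT. snR76 was at 1.81, 1.22 and 2.16 CPM against 10.9, 12.9 and 13.6 CPM (-2.87 ± 0.20, adjusted p = 3.50e-11), and snR189 was at 13.1, 9.56 and 23.3 CPM (-2.004 ± 0.19, adjusted p = 2.92e-09). Without replicate 3 of set2Δ the differences were -3.12 for snR76 and -2.49 for snR189. snR9 was at 129, 109 and 138 CPM, which overlapped the 120, 118 and 126 CPM of WT (0.05 ± 0.08, adjusted p = 0.634), and snR128 did not pass either (0.27 ± 0.36). The value of snR128 turned with 1 library: it was 0.71 and passed without replicate 2 of set2Δ (adjusted p = 0.0318), and was -0.52 without replicate 3 (adjusted p = 0.174). That of snR9 was -0.04 without replicate 3 (adjusted p = 0.738). In bre1Δ the C/D guides snR68 and snR87 were above WT at day 4. snR68 was at 8.98, 9.44 and 11.5 CPM against 6.11, 5.98 and 5.67 CPM (0.77 ± 0.14, adjusted p = 3.01e-05), and snR87 was at 6.01 ± 0.672 CPM against 4.46 ± 0.314 CPM (0.44 ± 0.18), a call lost without replicate 1 or 3 of WT or replicate 3 of bre1Δ (0.35 to 0.43).

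The change with age itself differed between strains for most snoRNAs. As the difference between the day effect of set2Δ and that of WT, 60 of 74 were lower and 0 higher, against 37.9% and 34.8% of all genes, with a median of -1.80. At least 2-fold, 57 were lower, against 15.6%, and 0 higher, against 10.2%. DESeq2 also gave 0 higher, and at an unadjusted p under 0.05 in edgeR 62 passed, 0 of them higher. For bre1Δ 58 were lower and 1, snR80, was higher, against 36.9% and 40% of all genes, with a median of -2.31. At least 2-fold, 56 were lower and 1 higher, against 16.2% and 13.9%. The WT libraries enter both of these differences. For snR189 they were -4.66 ± 0.34 in set2Δ and -7.01 ± 0.49 in bre1Δ, for snR4 -3.22 ± 0.14 and -3.89 ± 0.15, and for snR76 -4.50 ± 0.33 and -3.98 ± 0.31. For snR87 they were 0.26 ± 0.27 and 0.30 ± 0.24, neither past the threshold. Without replicate 3 of set2Δ at day 4 the set2Δ differences were -5.15 for snR189, -3.17 for snR4, -4.74 for snR76 and 0.24 for snR87.

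**Figure D5:**
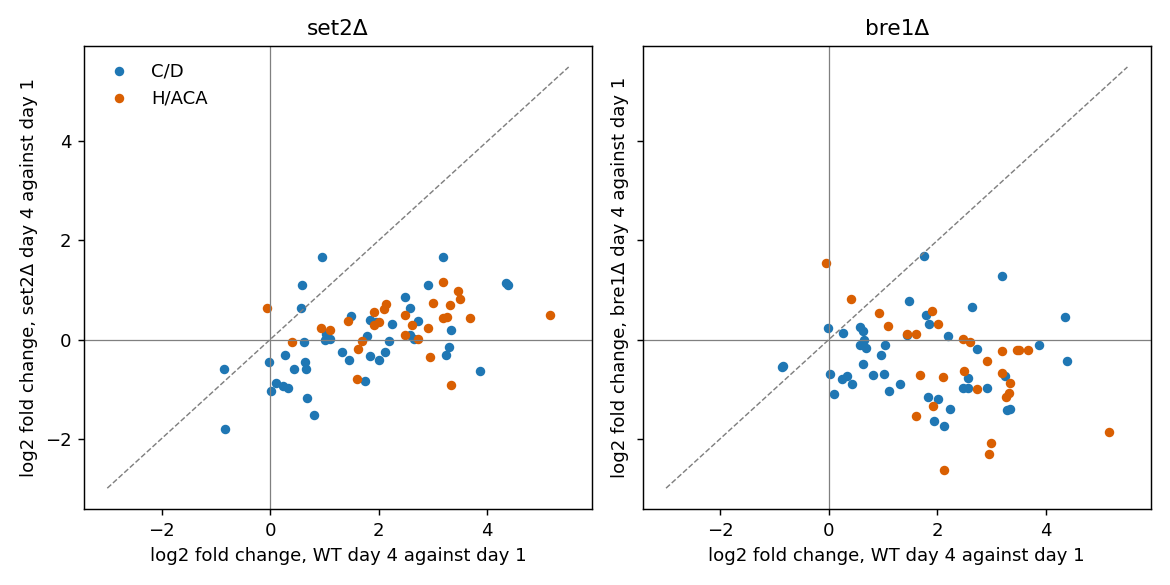
Log2 fold change between day 4 and day 1 of the 74 tested snoRNAs in set2Δ (left) and bre1Δ (right) against that in WT; the dashed line marks equal changes. Most points lie below the line, and the point farthest right in both panels is snR189, at 5.15 in WT, 0.49 in set2Δ and -1.86 in bre1Δ.

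The group with the highest mean was WT at day 4 for 41 of the 74 snoRNAs, set2Δ at day 4 for 12, bre1Δ at day 1 for 9, bre1Δ at day 4 for 8, set2Δ at day 1 for 3 and WT at day 1 for 1. These means include replicate 3 of set2Δ at day 4, and the order was not counted again without it. For snR32 and snR34, both among those 12, the other libraries lay below the WT mean of day 4. They were at 12.4 and 5.23 CPM against 12.8 CPM, and at 20.6 and 12.5 CPM against 21.1 CPM. For snR24, also among the 12, they were at 2.65 and 3.90 CPM against 2.20 CPM. The group with the lowest mean was WT at day 1 for 34 and bre1Δ at day 4 for 21. Levels between genes can be compared only per length, in FPKM from the deposited table. By that measure snR41 was highest in WT at day 1 (203 ± 25.3 FPKM), bre1Δ at day 1 (337 ± 12.4) and bre1Δ at day 4 (178 ± 11.8), snR4 in WT at day 4 (1290 ± 75.6) and set2Δ at day 4 (775 ± 122), and snR9 in set2Δ at day 1 (487 ± 30.5). At day 4 in set2Δ snR4 and snR9 (700.1 ± 85.0 FPKM) lay within each other's spread. The median over the 75 genes went from 14.5 to 51.8 FPKM with age in WT, from 37.3 to 38.0 in set2Δ and from 31.6 to 22.2 in bre1Δ.

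snR41, a methylation guide for the small subunit, moved less than most in WT. It was at 21.1, 24.8 and 20.6 CPM in WT at day 1 and at 29.5, 30.8 and 29.9 CPM at day 4 (0.43 ± 0.12, adjusted p = 0.00217). In bre1Δ it went from 30.8, 29.5 and 29.5 CPM to 15.7, 17.0 and 15.4 CPM (-0.91 ± 0.12, adjusted p = 7.53e-07), and in set2Δ it changed by -0.60 ± 0.12. WT and bre1Δ thus moved in opposite directions, each without overlap of its days.

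The genes of the proteins that bind snoRNAs did not all follow the snoRNAs. Of the C/D core (NOP1, NOP56, NOP58 and SNU13) 3 of 4 rose with age in WT, 4 of 4 fell in set2Δ and 4 of 4 rose in bre1Δ, with median log2 fold changes of 0.78, -1.62 and 1.48. SNU13 changed by 2.41 ± 0.10, -1.41 ± 0.12 and 2.47 ± 0.10 in the 3 strains, and NOP1, the methyltransferase, by 1.12 ± 0.09, -2.13 ± 0.10 and 1.79 ± 0.08. Of the H/ACA core (CBF5, GAR1, NHP2 and NOP10) 4 of 4 rose in WT, 3 fell and 1 rose in set2Δ, and 3 rose and 1 fell in bre1Δ. CBF5, the pseudouridine synthase, changed by 0.53 ± 0.06, -1.07 ± 0.06 and 1.30 ± 0.06. Of all genes 37.2% rose and 40.5% fell with age in WT, 34.3% and 37.3% in set2Δ, and 37.9% and 38.4% in bre1Δ. In bre1Δ 7 of these 8 protein genes rose, beside 9 of 74 snoRNAs. The share of snoRNAs that fell there, 33 of 74, was near that of all genes.

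Genes for assembly, termination and trimming moved in both directions, as all genes did. With age in WT 37.2% of all genes rose and 40.5% fell. Beside this, 3 of 9 assembly factors rose and 5 fell, and 3 of 11 genes of termination and end processing rose and 5 fell. Of 21 genes of the nuclear exosome and its TRAMP cofactor, which trim and degrade nuclear RNA, 11 rose and 6 fell. In set2Δ the exosome and TRAMP counts were 5 higher and 12 lower, against 34.3% and 37.3% of all genes. In bre1Δ they were 14 higher and 4 lower, against 37.9% and 38.4%. No difference from these shares was tested.

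Other structured RNAs that are not snoRNAs, and that for the most part lack a poly(A) tail when mature, moved with the snoRNAs in some comparisons and not in others. Of 8 tested, 8 rose with age in WT, with a median of 2.79, against 37.2% of all genes. In bre1Δ 8 of 8 were lower than in WT at day 4, with a median of -3.16, against 41.6%. Both day effects of the deletions were lower than that of WT for 8 of 8, against 37.9% for set2Δ and 36.9% for bre1Δ. In bre1Δ against WT at day 1, 41 snoRNAs were higher and 3 lower. There 2 of the 8 were higher and 2 lower, against 35.8% of all genes in each direction. With age in set2Δ 5 of the 8 rose and 2 fell, against 34.3% and 37.3% of all genes. Their median was 0.76, beside the 0.10 of the snoRNAs. These set2Δ values were not fitted again without replicate 3 of day 4, the highest library of its group for each of the 8. SCR1, the RNA of the signal recognition particle, changed by 2.82 ± 0.34 with age in WT, RPR1, the RNA of RNase P, by 1.84 ± 0.14, the spliceosomal RNA LSR1 by 3.35 ± 0.18 and the telomerase RNA TLC1 by 1.20 ± 0.07. In set2Δ SCR1 was at 376, 300 and 210 CPM at day 1 and at 462, 199 and 664 CPM at day 4. The part of poly(A) selection in the snoRNA results was not tested.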

How the data were processed

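Poly(A) RNA of 18 yeast libraries, 6 groups of 3, was sequenced from a mRNA-seq kit, per the labels' protocols. The authors deposited raw counts per gene and FPKM values per gene. FastQC 0.11.8, cutadapt 2.6, STAR 2.7.0b, HTSeq 2.0.2, R 4.2.0 and DESeq2 1.36.0 are named in the submitters' processing notes, with the build sacCer3. The strand setting and the annotation used for counting are not given in the sources used here, so reads of overlapping genes may be shared.

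From the counts, edgeR 4.0.16 in R 4.3.3 tested 6320 of 6837 genes kept by filterByExpr, after TMM scaling, in 1 quasi-likelihood model over the 6 groups, with 9 comparisons and Benjamini-Hochberg adjustment in each. The call threshold was an adjusted p of 0.05. The biological coefficient of variation was 6.22%. The FPKM values, per length and depth as deposited, were used for levels between genes and for limma 3.58.1 as an alternative, with 1 or 0.1 added before log2. DESeq2 1.42.0 was another alternative. The intervals on counts are exact and cover counting error only.

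For bre1Δ against WT at day 1 the deviations of all 3 same-numbered pairs correlated at over 0.1 (r of 0.129, 0.137 and 0.129), and there the block gave 40 higher and 3 lower. Boxes were searched in the R64 sequence, and host introns and neighbours were read from its RefSeq annotation. The clusters were taken from a gene list drawn up for this report and not from that annotation. By rule, values were picked for the processing snoRNAs with snR190, the neighbour of BRE1 and the members with the highest mean FPKM. In each comparison the 2 largest rises and the 2 largest falls past the threshold, with at least 5 CPM in a group, were added. Some of these are given by library, and others by group mean or log2 fold change only. The members and gene lists were chosen with earlier results of these data known.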

Additional observations from a re-analysis of the deposited data

Results flagged for a closer look

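The change between days differed between strains by a test of the difference itself (edgeR's quasi-likelihood test, Benjamini-Hochberg adjustment), and the snoRNAs named above that passed it are given here as the log2 day effect of a deletion minus that of WT, both of which use the same WT libraries. For set2Δ 60 snoRNAs were lower. Among those needed for processing of the precursor, the difference was -1.80 for snR17a, -1.93 for snR17b, -3.28 for snR128, -2.49 for snR30 and -4.25 for snR10. For snR190, which shares a transcript with snR128, it was -1.59. Among the H/ACA guides it was -4.66 for snR189, -2.03 for snR32, -1.41 for snR37, -3.29 for snR8 and -1.48 for snR9. The acetylation guides snR4 and snR45 were at -3.22 and -3.16. Among the methylation guides it was -1.05 for snR57, -0.98 for snR62, -1 for snR71, -4.50 for snR76, -0.58 for snR69 and -1.03 for snR41. Without replicate 3 of set2Δ at day 4 all of these named snoRNAs still passed. There the difference was -4.06 for snR128, -5.15 for snR189, -2.79 for snR32 and -2.08 for snR37, and -4.18 for snR10 and -3.17 for snR4.

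For bre1Δ 58 snoRNAs were lower and 1 was higher. The processing snoRNAs were at -3.89 for snR17a, -3.35 for snR17b, -4.82 for snR128, -3.68 for snR30 and -4.22 for snR10, and snR190 was at -3.59. The H/ACA guides were at -7.01 for snR189, -3.41 for snR32, -4.77 for snR37, -5.26 for snR8 and -2.87 for snR9, and the acetylation guides snR4 and snR45 at -3.89 and -4.73. The methylation guides were at -0.71 for snR57, -1.21 for snR62, -3.98 for snR76 and -1.34 for snR41. The values of snR10 rest on 3 counts in WT at day 1. That of snR69 in set2Δ did not pass without replicate 2 of WT at day 1, replicate 3 of WT at day 4, replicate 1 of set2Δ at day 1 or replicate 2 of set2Δ at day 4 (-0.57 to -0.40).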

How the results depend on the processing

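Of 3379 values of single named snoRNAs under the alternatives, 77 changed sign, of which 0 had passed the threshold in the main analysis. The median change of the snoRNAs with age in set2Δ, 0.10, was -0.004 by library size and -0.04 by upper quartile, where the median of all genes was -0.13 and -0.17, and -0.02 and -0.01 by limma with 1 and 0.1 added. Of the same values, 3171 stayed on the same side of the threshold, 137 no longer passed and 71 newly passed. The set2Δ change with age depended most on the processing: the count of higher snoRNAs went from 23 to 15 by library size, 13 by upper quartile and 10 by limma on FPKM with either pseudocount, and without 1 library it ranged from 10 to 27, with 10 without replicate 3 of day 4 and 14 without replicate 2 or 3 of day 1. When every library was left out in turn, 18 of the 38 calls with age in set2Δ were kept. Small counts moved too. The lower count of WT with age was 2 by upper quartile and 1 to 2 without 1 library, 2 without replicate 3 of day 1. The lower counts at day 1 were 1 in both deletions by library size, and 1 in bre1Δ by limma with either pseudocount; in bre1Δ the lower count was 2 to 5 without 1 library, 5 without replicate 3 of WT. At day 4 the higher count of bre1Δ was 10 by library size, upper quartile and both limma fits, and that of set2Δ was 0 to 3 without 1 library, 0 without its replicate 3 and 1 without replicate 2 of WT. The higher count of the bre1Δ day effect minus that of WT was 2 with only the groups compared and 0 to 1 without 1 library, 0 without replicate 2 of WT at day 1. Over the 48 snoRNAs with 10 counts in every library the share was 0.109% in set2Δ at day 1 and 0.0523% in bre1Δ at day 4. The cause of these shifts was not tested. TMM from protein-coding genes only, chosen after seeing the data, gave 62 higher in WT with age and 23 in set2Δ.

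The replicate block, by the numbers in the labels, gave 61 higher and 1 lower in WT with age, 25 and 15 in set2Δ, and 9 and 34 in bre1Δ, and moved no count by over 1.5 times. Outside bre1Δ against WT at day 1 the 3 same-numbered pairs did not all correlate at over 0.1. With age in set2Δ 2 of the 3 did (r of 0.274, 0.048 and 0.135), so pairing there is possible. Whether a shared number means a shared origin was not settled. Low counts limit some genes: snR10 had 0 to 2 counts per library in WT at day 1, and snR53 could not be tested. The part of the overlap with YGL088W in the counts of snR10 was not tested. Poly(A) selection and unstated strand handling limit what a snoRNA level in these libraries stands for.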

Other observations

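The spread within groups, looked at after the values were seen, was uneven. In WT at day 4 replicate 1 was the highest library for 39 of 74 snoRNAs, with a median log2 ratio of 0.07 to the other libraries and the largest ratio at snR32, 1.08. In bre1Δ at day 1 replicate 1 was the highest for 44, with a median of 0.16. In replicate 3 of set2Δ at day 4 the median ratio was 0.69 for H/ACA snoRNAs and 0.29 for C/D snoRNAs, and the largest was 1.49 for snR128. By FPKM snR10, which overlaps YGL088W, was the lowest of the 75 in all groups but set2Δ at day 1, where snR80 was the lowest.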
